A study of Mus musculus with 18 samples.

Results

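The genes described are 7 matrix metalloproteinases (Mmp2, Mmp3, Mmp7, Mmp9, Mmp10, Mmp13 and Mmp14) and 3 tissue inhibitors of metalloproteinases (Timp1, Timp2 and Timp3). They were chosen by name and found by their mouse gene identifiers, and all 10 were present among the 18349 genes of the expression table. RNA of whole mouse colon was sequenced in 18 libraries of 5 groups. All mice were male C57BL/6 with the host genotype labelled WT. The groups ZJ316_WT, ZJ316_KO, ZJ316_COM (n = 4 each) and DSS (n = 3) drank 2.5% dextran sulfate sodium, which damages the lining of the colon and is used to model colitis, for 7 days. The first 3 of these were then given the Lactobacillus plantarum strain of their name by gavage for 5 weeks, and the DSS group was given PBS over the same time. Control mice (n = 3) drank water, and no gavage of them is described. The labels do not explain the KO and COM strains, and numbered libraries are not tied to single animals, so p-values measure the spread between these samples, which may be technical.

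Matrix metalloproteinases are zinc enzymes that cut collagens, laminins, proteoglycans and many signalling proteins. Most are secreted as inactive precursors and are switched on by removal of a propeptide, and TIMPs block the active enzymes by binding in their catalytic cleft. In injured gut, stromal and inflammatory cells are known sources of these enzymes, and transcripts say nothing directly of active enzyme. Levels are in FPKM, a fragment count corrected for transcript length and library size, so levels of different genes can be set side by side per length.

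The members lie at several places in the genome, and 4 of them are neighbours. Mmp13, Mmp3, Mmp10 and Mmp7 lie in this order on chromosome 9 within 427072 bases (chr9:7272514-7699585, GRCm38.p6), a stretch with 10 annotated Mmp genes within 1 Mb of it. Mmp9 lies on chromosome 2, Mmp2 on 8, Timp3 on 10, Timp2 on 11, Mmp14 on 14 and Timp1 on X. RefSeq promoter windows of assembly GRCm38.p6, 250 bases before to 50 after a start, were held for 8 members, as 9 windows since Mmp7 has a pair of starts. The entries for Mmp2 and Mmp9 were missing. Windows were searched for the letters bound by the AP-1 factor family, TGAGTCA on both strands, and for the TATA box letters TATAAA on the gene's strand, in the bases before the start. Stretches from the chromosome 9 neighbours are shown because both sets of letters occurred in each of them and in no window of the other members. Capitals mark the AP-1 letters first (in Mmp13 they read as the reverse complement) and the TATA box letters second.

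Mmp13: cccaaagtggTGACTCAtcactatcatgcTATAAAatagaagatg
Mmp3: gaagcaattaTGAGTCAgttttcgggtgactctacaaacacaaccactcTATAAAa
Mmp10: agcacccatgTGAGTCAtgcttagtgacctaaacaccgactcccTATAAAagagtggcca
Mmp7: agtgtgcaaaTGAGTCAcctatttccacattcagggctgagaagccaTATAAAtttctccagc

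All 4 stretches are on the plus strand of chromosome 9, at chr9:7272469-7272513 for Mmp13, chr9:7445766-7445821 for Mmp3, chr9:7502269-7502328 for Mmp10 and chr9:7692017-7692079 for Mmp7. The AP-1 letters began 35 bases before the annotated start of Mmp13, 46 before that of Mmp3, and 63 before those of Mmp10 and Mmp7. The TATA box letters began 16 bases before the annotated start of Mmp13, 7 before that of Mmp3, 29 before that of Mmp10 and 26 before that of Mmp7. All these distances depend on the annotated starts, and whether those are the starts used in colon was not tested. The bases just after the Mmp10 start were not found as 1 run in a GENCODE transcript of the gene, so its distances rest on RefSeq alone. From the first base of the AP-1 letters to the first base of the TATA box letters there were 19 bases in Mmp13, 39 in Mmp3, 34 in Mmp10 and 37 in Mmp7. Among 32851 promoter windows of the table, 4.46% held the AP-1 letters before the start, 7.59% the TATA box letters, and 0.481% both. No match was found in the window of the second Mmp7 start or in those of Mmp14, Timp1, Timp2 and Timp3. These matches describe the sequence and are not binding sites shown by these data.

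**Figure D1:**
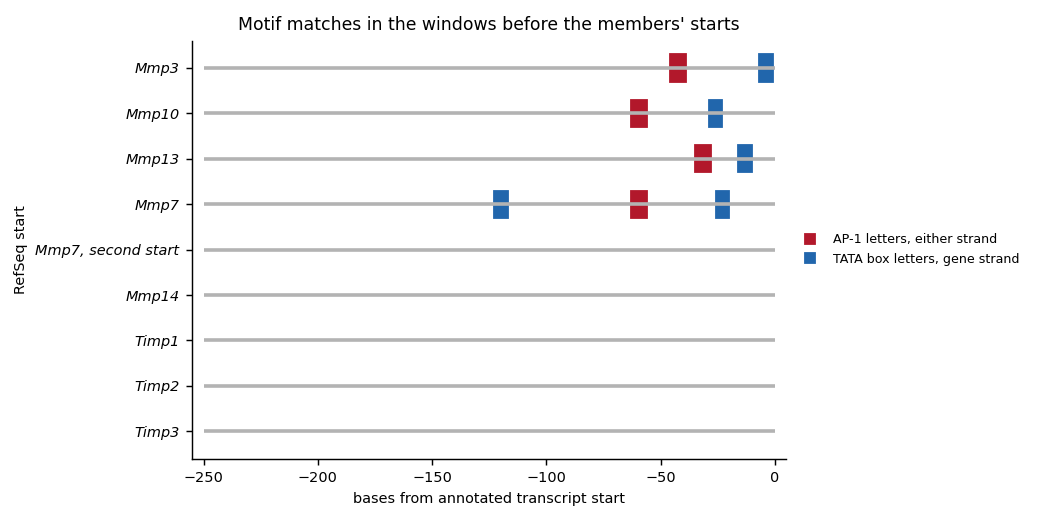
Distance in bases from the annotated start (horizontal axis) of AP-1 letters on either strand (red) and TATA box letters on the gene's strand (blue) in the 250 bases before each of 9 RefSeq starts (rows). Mmp3, Mmp10, Mmp13 and the first Mmp7 start hold both, and the other 5 starts hold neither.

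Some libraries stood apart in marker genes of other tissues, and counts are given with all libraries and, for the members, without each kind of them. For the gene lists they are given without the libraries high in squamous markers. Where list counts at an unadjusted p are given for that setting, the share of all genes at this threshold is not given. Those counts therefore have no background beside them. Over 8 markers of squamous epithelium, the mean log2(FPKM + 1) was 3.38 in ZJ316_WT 2, 2.73 in ZJ316_WT 4, 2.24 in ZJ316_KO 3, 4.13 in ZJ316_COM 3 and 4.08 in DSS 2, against at most 0.68 in the other libraries. Pancreatic acinar genes were high in ZJ316_KO 3, DSS 1 and DSS 3 (mean log2 of 7.81 to 10.2), and distal gut Hox genes were low in ZJ316_KO 2, DSS 3 and Control 3 (1.18 to 2.48). The list of colonic epithelial markers, with Epcam and Vil1 among them, had a mean log2 of 7.98 to 8.78 in all libraries. Single genes of it varied more, as Car1 ranged from 716 FPKM in DSS 3 to 15636 FPKM in Control 3. Totals of FPKM ranged from 517933 to 558590 per library, and the read depth is unknown.

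Metalloproteinase transcripts were more abundant in the colons of mice that had drunk dextran sulfate sodium, and the sizes differed between the enzymes. In bulk tissue, more cells of a type and more RNA per cell cannot be told apart. The 15 libraries of such mice lay above all 3 Control libraries, with no overlap, for 7 of the 10 members: Mmp2, Mmp3, Mmp10, Mmp13, Mmp14, Timp1 and Timp2. Of these, Mmp3 and Mmp10 were under 1 FPKM in every Control library, so they entered the tested genes only through treated libraries. Mmp13, at 0.75 FPKM in Control 3, also needed at least 1 treated library to enter. Of all 13263 genes tested, 4.20% showed this separation. For Mmp9 it held in 14 of the 15, for Timp3 in 12 and for Mmp7 in 5. Over the 18 libraries, Timp2 had the highest mean level (46.4 FPKM), followed by Timp3 (31.3), Mmp14 (25.3) and Mmp2 (17.9). Next came Timp1 (3.67), Mmp13 (3.43), Mmp3 (3.21) and Mmp10 (3.17), whose ranges overlapped so that these 4 have no clear order. Mmp7 (0.987) and Mmp9 (0.647) were lowest, and their ranges overlapped too.

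**Figure D2:**
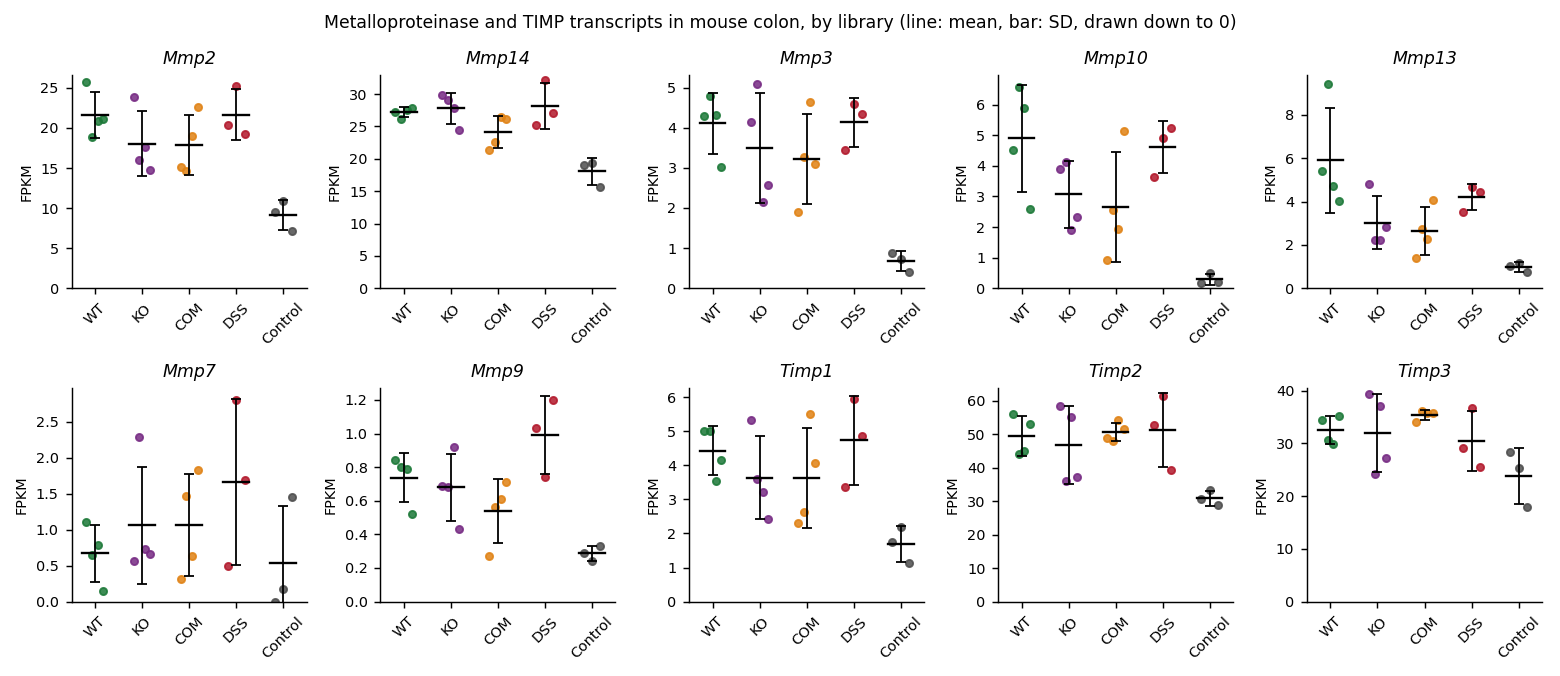
FPKM (vertical axes, from 0) of the 10 members in each library (points), in the groups ZJ316_WT, ZJ316_KO, ZJ316_COM, DSS and Control from left to right, with the mean (line) and SD (bar, drawn down to 0). For Mmp10 the libraries of treated mice lie between 0.94 and 6.58 FPKM and the Control libraries between 0.16 and 0.5 FPKM, while for Mmp7 the groups overlap.

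The stromelysins and collagenase 3 were at or under 1.18 FPKM in every Control library. Mmp10, stromelysin-2, which cuts proteoglycans and other matrix proteins and can activate procollagenases, had 4.52, 6.58, 5.9 and 2.59 FPKM in ZJ316_WT, 3.89, 4.13, 1.92 and 2.32 FPKM in ZJ316_KO, 0.94, 2.57, 1.94 and 5.15 FPKM in ZJ316_COM, 3.64, 4.92 and 5.25 FPKM in DSS, and 0.16, 0.5 and 0.21 FPKM in Control. Every treated library was above every Control library, and the lowest of them, ZJ316_COM 1, stood nearest to Control. Mmp3, stromelysin-1, a close relative of Mmp10 with a similar set of substrates, had 4.3, 4.79, 4.31 and 3.02 FPKM in ZJ316_WT, 4.15, 5.09, 2.16 and 2.58 FPKM in ZJ316_KO, 1.91, 3.27, 4.64 and 3.09 FPKM in ZJ316_COM, 3.45, 4.6 and 4.35 FPKM in DSS, and 0.89, 0.72 and 0.41 FPKM in Control. Again no Control library reached a treated one. Mmp13, the main collagenase of fibrillar collagen in rodents, had 5.4, 9.43, 4.73 and 4.05 FPKM in ZJ316_WT, 4.8, 2.23, 2.25 and 2.82 FPKM in ZJ316_KO, 1.42, 2.75, 2.26 and 4.07 FPKM in ZJ316_COM, 3.53, 4.68 and 4.43 FPKM in DSS, and 1.03, 1.18 and 0.75 FPKM in Control. The top value was in ZJ316_WT 2, one of the libraries high in squamous markers. ZJ316_COM 3, the highest in those markers, had 2.26 FPKM, and ZJ316_WT 1, next in Mmp13 at 5.4 FPKM, was not high in them. Parts of Mmp3 and Mmp10 transcripts are alike, with 8.39% of the 50-base words of Mmp3 and 8.37% of those of Mmp10 shared with another gene, so some fragments may be split between the pair.

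Gelatinase A and its membrane-bound activator were at higher levels and differed less in proportion. Mmp2, gelatinase A, which cuts denatured collagen and type IV collagen, had 25.7, 18.9, 20.8 and 21.1 FPKM in ZJ316_WT, 23.9, 15.96, 17.6 and 14.7 FPKM in ZJ316_KO, 15.2, 14.6, 19.0 and 22.6 FPKM in ZJ316_COM, 20.4, 25.2 and 19.3 FPKM in DSS, and 9.51, 10.9 and 7.14 FPKM in Control. The groups of treated mice overlapped each other, and none overlapped Control. Mmp14, the membrane-anchored enzyme that activates the Mmp2 precursor with Timp2 as a bridge, had 27.2, 26.2, 27.6 and 27.9 FPKM in ZJ316_WT, 29.8, 29.1, 27.8 and 24.4 FPKM in ZJ316_KO, 21.4, 22.7, 26.4 and 26.2 FPKM in ZJ316_COM, 25.3, 32.2 and 27.02 FPKM in DSS, and 19.1, 19.4 and 15.7 FPKM in Control. Its spread was small, with a highest treated library 1.504 times the lowest one, against 7.00 times for Mmp10.

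Mmp7 and Mmp9 were near the floor of the table. Mmp7, matrilysin, which in mice processes the defensins of small-intestinal Paneth cells, had 1.1, 0.65, 0.79 and 0.14 FPKM in ZJ316_WT, 0.56, 2.28, 0.73 and 0.66 FPKM in ZJ316_KO, 0.32, 1.47, 0.63 and 1.83 FPKM in ZJ316_COM, 0.49, 2.8 and 1.69 FPKM in DSS, and 0, 0.17 and 1.45 FPKM in Control. It overlaps the antisense gene AV064505, for which no value was used. Its high values were scattered over the groups, Control included. Control 3, ZJ316_KO 2 and DSS 3 (1.45, 2.28 and 1.69 FPKM) are also low in distal gut Hox genes. DSS 2, with the highest Mmp7 (2.8 FPKM), had the highest mean log2 of the Hox genes (4.164). ZJ316_COM 4 and ZJ316_COM 2 (1.83 and 1.47 FPKM) had Hox means of 3.51 and 3.38. Of 9 genes of the Paneth list, 7 were in the table, and they differed among themselves. Its defensins were at 0 except Defa24, which reached at most 1.58 FPKM. Ang4, an antimicrobial ribonuclease, had 77.5 to 311 FPKM in ZJ316_WT, 416 to 1392 FPKM in ZJ316_KO, 48.3 to 131 FPKM in ZJ316_COM, 639 to 995 FPKM in DSS, and 4.7, 637 and 40.1 FPKM in Control. It was called higher in ZJ316_KO (log2 fold change 3.95, limma adjusted p = 0.0396) and DSS (3.91, 0.0256), and Lyz1, a lysozyme, in DSS (1.21, 0.0393). Without the libraries high in squamous markers no gene of the list was called by limma, and 1 in ZJ316_KO and 2 in DSS had an unadjusted p under 0.05. The part of Paneth cells in the Mmp7 levels was not tested. Mmp9, gelatinase B, which neutrophils store in granules, ranged from 0.52 to 0.84 FPKM in ZJ316_WT, 0.43 to 0.92 FPKM in ZJ316_KO, 0.27 to 0.71 FPKM in ZJ316_COM, 0.74 to 1.2 FPKM in DSS and 0.24 to 0.33 FPKM in Control. It reached 1 FPKM in 2 libraries, both of DSS, and so was not among the genes tested, which needed at least 1 FPKM in at least 3 libraries.

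The inhibitors included the most abundant transcripts of the set. Timp2, which inhibits secreted enzymes and also takes part in Mmp2 activation, had 56.1, 44.1, 45.1 and 53.0 FPKM in ZJ316_WT, 58.3, 36.2, 55.3 and 37.3 FPKM in ZJ316_KO, 49.0, 47.9, 54.2 and 51.5 FPKM in ZJ316_COM, 52.8, 61.3 and 39.4 FPKM in DSS, and 30.7, 33.2 and 28.8 FPKM in Control. ZJ316_COM was the tightest of the treated groups, and ZJ316_KO had a higher and a lower pair of libraries. Timp3, which binds to the matrix and also inhibits ADAM17, had 34.5, 30.7, 29.8 and 35.1 FPKM in ZJ316_WT, 39.5, 24.1, 37.1 and 27.3 FPKM in ZJ316_KO, 34.1, 36.2, 35.8 and 35.7 FPKM in ZJ316_COM, 29.1, 36.6 and 25.4 FPKM in DSS, and 28.3, 25.3 and 17.9 FPKM in Control. Here Control overlapped DSS and ZJ316_KO. Timp1, the inhibitor best known for its induction by cytokines, ranged from 3.55 to 5.02 FPKM in ZJ316_WT, 2.43 to 5.33 FPKM in ZJ316_KO, 2.32 to 5.51 FPKM in ZJ316_COM, 3.37 to 5.96 FPKM in DSS and 1.12 to 2.19 FPKM in Control. Timp1 lies inside Syn1 and Timp3 inside Syn3, both on the opposite strand, and whether counting used strand is not stated in the sources used here. Syn1 had 1.06 to 3.02 FPKM, near the level of Timp1, and Syn3 0.69 to 1.36 FPKM, so the Timp1 value is the less certain of the pair.

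Summed over the 7 enzymes, Mmp transcripts ranged from 59.3 to 69.1 FPKM in ZJ316_WT, 48.0 to 67.8 in ZJ316_KO, 41.4 to 63.7 in ZJ316_COM, 57.8 to 75.2 in DSS and 26.0 to 33.1 in Control. Per FPKM of the 3 Timp transcripts, this made 0.643 to 0.843 in ZJ316_WT, 0.558 to 0.931 in ZJ316_KO, 0.485 to 0.698 in ZJ316_COM, 0.678 to 0.907 in DSS and 0.510 to 0.544 in Control. All libraries of ZJ316_WT, ZJ316_KO and DSS lay above Control in this ratio, and ZJ316_COM overlapped it through ZJ316_COM 1. The makeup of the sum differed as well: Mmp3, Mmp10 and Mmp13 together were 16.3% to 30.9% of it in ZJ316_WT, 11.9% to 19.3% in ZJ316_KO, 10.3% to 19.3% in ZJ316_COM, 18.4% to 22.2% in DSS and 5.27% to 7.26% in Control. These sums are descriptions with no test.

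For tests, log2(FPKM + 1) of all genes was fitted in limma with moderated variances, with calls at an adjusted p under 0.05 (Benjamini-Hochberg over the 13263 genes of a comparison). A fold change on this scale understates the change of genes with low FPKM. Of the members, 9 were tested. Mmp3 and Mmp10 were under 1 FPKM in every Control library, so they could pass the filter only through treated libraries and had to differ. Their calls against Control are counted below but lend no support. Mmp13 had 1.03, 1.18 and 0.75 FPKM in Control, so it also needed a treated library to pass, and its calls against Control are weaker support. The same holds for every listed gene under 1 FPKM in any Control library, Il1b among them. The comparisons with Control share its 3 libraries and are therefore not independent of each other.

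In DSS against Control, the stromelysins, collagenase 3, the pair of Mmp2 and Mmp14 and the inhibitors Timp1 and Timp2 rose. The 7 members called higher were Mmp2, Mmp3, Mmp10, Mmp13, Mmp14, Timp1 and Timp2, and none was called lower. They include Mmp3 and Mmp10, which passed the filter only through treated libraries. In this comparison 11.6% of all genes tested were called higher. The log2 fold change was 2.12 ± 0.35 (SE) for Mmp10 (limma adjusted p = 0.00213), 1.62 ± 0.25 for Mmp3 (0.00133) and 1.39 ± 0.28 for Mmp13 (0.00539). In means, Mmp10 had 4.60 ± 0.85 FPKM in DSS and 0.290 ± 0.184 FPKM in Control (SD, n = 3 each). The stromal pair changed by 1.16 ± 0.19 for Mmp2 (adjusted p = 0.00206) and 0.61 ± 0.10 for Mmp14 (0.00242), the inhibitors by 1.09 ± 0.26 for Timp1 (0.0120) and 0.69 ± 0.18 for Timp2 (0.0169). Neither Mmp7 (0.80 ± 0.41, adjusted p = 0.186) nor Timp3 (0.35 ± 0.18, adjusted p = 0.193) passed. Without DSS 2, 5 members were called, Timp1 (adjusted p = 0.0552) and Timp2 (0.0787) having missed the threshold, and Timp2 also missed it without DSS 1 (0.0526) or Control 3 (0.0525). The share of all genes called without DSS 2 is not given, so this count has no background beside it. A fit of these 6 libraries alone called 0 of all genes, with an adjusted p of 0.0504 for Mmp3, Mmp10 and Mmp13.

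In ZJ316_WT against Control, the same 7 members were called higher and none lower, where 14.7% of all genes tested were called higher. They again include Mmp3 and Mmp10, which passed the filter only through treated libraries. Mmp13 changed by 1.74 ± 0.26 on the log2 scale (limma adjusted p = 0.000746), with 5.90 ± 2.42 FPKM in ZJ316_WT (SD, n = 4) and 0.987 ± 0.218 FPKM in Control (n = 3). Mmp10 changed by 2.15 ± 0.33 (0.000782), Mmp3 by 1.61 ± 0.23 (0.000558) and Mmp2 by 1.16 ± 0.18 (0.000804). The changes of Mmp14 (0.57 ± 0.10, 0.00145), Timp1 (1.03 ± 0.24, 0.00859) and Timp2 (0.66 ± 0.17, 0.0118) were smaller. Timp3 had 0.45 ± 0.17 (adjusted p = 0.0623), although its 4 ZJ316_WT libraries were all above Control, and passed once Control 1 was left out (0.0237). Mmp7 had 0.20 ± 0.38 (0.735).

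In ZJ316_KO against Control, 5 of the 6 tested enzymes and none of the 3 inhibitors passed, and whether enzymes and inhibitors differed in this was not tested. Mmp3 and Mmp10 are among the 5 and lend no support, as they passed the filter only through treated libraries. Called higher were 5 members, Mmp2, Mmp3, Mmp10, Mmp13 and Mmp14, and none was lower, where 3.69% of all genes tested were called higher. The log2 fold changes were 1.62 ± 0.33 for Mmp10 (limma adjusted p = 0.0120), 1.39 ± 0.23 for Mmp3 (0.00433), 0.98 ± 0.26 for Mmp13 (0.0437), 0.90 ± 0.18 for Mmp2 (0.0111) and 0.60 ± 0.10 for Mmp14 (0.00382). Values short of the threshold were 0.77 ± 0.24 for Timp1 (0.0810), 0.55 ± 0.17 for Timp2 (0.0682), 0.40 ± 0.17 for Timp3 (0.180) and 0.46 ± 0.38 for Mmp7 (0.531), and the 3 inhibitors each had an unadjusted p under 0.05. The Mmp13 call was lost without ZJ316_KO 1, ZJ316_KO 3, ZJ316_KO 4, Control 2 or Control 3 (adjusted p of 0.0569 to 0.129), while Timp2 passed without ZJ316_KO 2 (0.0369) or ZJ316_KO 4 (0.0476).

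In ZJ316_COM against Control, 6 members were called higher and none lower, where 5.26% of all genes tested were called higher. Mmp3 and Mmp10, which passed the filter only through treated libraries, are counted here too. The 6 called were Mmp10 (1.38 ± 0.33, limma adjusted p = 0.0211), Mmp3 (1.31 ± 0.23, 0.00598), Mmp2 (0.89 ± 0.18, 0.0106), Mmp14 (0.40 ± 0.10, 0.0230), Timp2 (0.69 ± 0.17, 0.0218) and Timp3 (0.58 ± 0.17, 0.0480). Timp3 had 35.4 ± 0.9 FPKM in ZJ316_COM (SD, n = 4) and 23.9 ± 5.3 FPKM in Control (n = 3). Mmp13 (0.82 ± 0.26, 0.0680), Timp1 (0.75 ± 0.24, 0.0706) and Mmp7 (0.47 ± 0.38, 0.480) did not pass. Mmp13 and Timp1 passed without ZJ316_COM 1 (limma adjusted p = 0.0351 and 0.0444) and after rescaling to TPM (0.0374 and 0.0449), and Mmp13 also with a pseudocount of 0.1 (0.0334). The count was 2 without ZJ316_COM 4 and 3 without ZJ316_COM 3 or Control 3, and the Timp3 call was lost under every removal of a single library of these groups except Control 1, with adjusted p up to 0.173. For these counts the share of all genes called is not given, so a fall of the members alone cannot be read from them.

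Calls were fewer when libraries that stood apart in markers of other tissues, and with them samples, were left out, for the members and for all genes called higher. The exception among the members was ZJ316_WT without the acinar-rich libraries, with 7 called as before. Without those high in squamous markers, 5 members were called in ZJ316_WT, 3 in ZJ316_KO, 1 in ZJ316_COM and 3 in DSS. Those of ZJ316_WT were Mmp2, Mmp3, Mmp10, Mmp13 and Mmp14, and those of ZJ316_KO were Mmp3, Mmp10 and Mmp14. In ZJ316_COM only Mmp3 was left, and in DSS Mmp3, Mmp10 and Mmp13. Here and in the counts below, calls of Mmp3 and Mmp10 lend no support, as this pair passed the filter only through treated libraries. Of all genes, 4.01% were then called higher in ZJ316_WT, 0.950% in ZJ316_KO, 0.339% in ZJ316_COM and 1.67% in DSS. Mmp2 then had 0.90 in ZJ316_KO (limma adjusted p = 0.0726), 0.85 in ZJ316_COM (0.0995) and 1.05 in DSS (0.0508), near its values with all libraries. Without those low in Hox genes the counts were 6 in ZJ316_WT, 4 in ZJ316_KO, 3 in ZJ316_COM and 6 in DSS, beside 9.76% of all genes in ZJ316_WT, 2.76% in ZJ316_KO, 4.70% in ZJ316_COM and 5.96% in DSS. Without those high in acinar genes they were 7 in ZJ316_WT, 4 in ZJ316_KO, 5 in ZJ316_COM and 5 in DSS, beside 11.6% of all genes in ZJ316_WT, 1.53% in ZJ316_KO, 3.60% in ZJ316_COM and 2.81% in DSS. The lone DSS library left here is assumed to vary like the other groups.

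**Figure D3:**
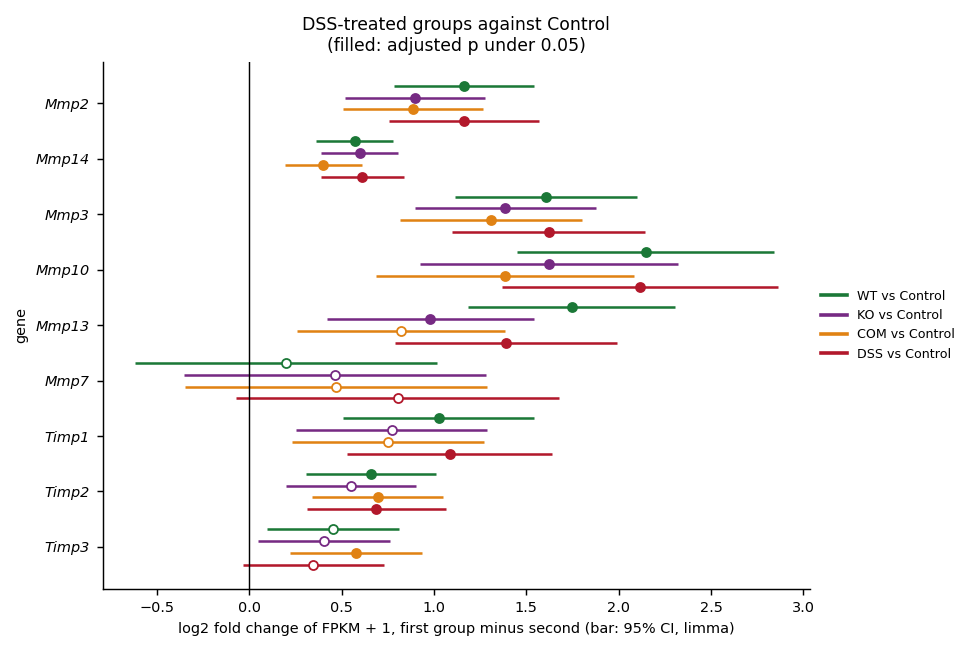
Log2 fold change of FPKM + 1 (horizontal axis) with its 95% confidence interval for the 9 tested members (rows) in ZJ316_WT, ZJ316_KO, ZJ316_COM and DSS against Control, filled where the limma adjusted p was under 0.05. All estimates lie above 0, from 0.20 for Mmp7 in ZJ316_WT to 2.15 for Mmp10 in ZJ316_WT.

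Groups of treated mice were next set against each other. None of the 9 tested members was called in any of the 6 comparisons by limma. The background was also low, at 0.00% of all genes in ZJ316_WT against DSS, 0.166% in ZJ316_KO against DSS, 0.0151% in ZJ316_COM against DSS, 0.829% in ZJ316_KO against ZJ316_WT, 0.0302% in ZJ316_COM against ZJ316_KO and 0.00754% in ZJ316_COM against ZJ316_WT. At an unadjusted p under 0.05 limma gave 3 members in ZJ316_COM against DSS, 2 in ZJ316_COM against ZJ316_WT, 1 in ZJ316_COM against ZJ316_KO, 1 in ZJ316_KO against ZJ316_WT, 0 in ZJ316_WT against DSS and 0 in ZJ316_KO against DSS, and all of them were lower in the first-named group. Of all genes, 11.0%, 11.2%, 10.8%, 20.1%, 4.77% and 16.3% had such a p in these 6 comparisons, in the same order. With 9 members tested, the count of 1 in ZJ316_COM against ZJ316_KO was near this background and that in ZJ316_KO against ZJ316_WT was below it. For ZJ316_WT against DSS the 95% confidence interval of the log2 fold change was -0.38 to 0.38 for Mmp2, -0.25 to 0.17 for Mmp14, -0.50 to 0.48 for Mmp3, -0.67 to 0.73 for Mmp10 and -0.21 to 0.92 for Mmp13, so differences of these sizes are not excluded by the data.

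With all libraries, the largest of these differences on the log2(FPKM + 1) scale was that of Mmp13 in ZJ316_COM against ZJ316_WT. It had 2.62 ± 1.11 FPKM in ZJ316_COM and 5.90 ± 2.42 FPKM in ZJ316_WT (SD, n = 4 each), a log2 fold change of -0.92 ± 0.24 with an interval of -1.44 to -0.40 (limma adjusted p = 0.226). In ZJ316_KO it had 3.02 ± 1.22 FPKM, a log2 fold change of -0.76 ± 0.24 against ZJ316_WT (-1.28 to -0.24, limma adjusted p = 0.114). Both groups overlapped ZJ316_WT, through ZJ316_COM 4 (4.07 FPKM) and ZJ316_KO 1 (4.8 FPKM), which passed the lowest ZJ316_WT library (4.05 FPKM). Without ZJ316_WT 2, the library with the top Mmp13 value and high squamous markers, the log2 fold change was -0.70 in ZJ316_COM (adjusted p = 0.603) and -0.55 in ZJ316_KO (0.288). Without all libraries high in squamous markers, Mmp10 (-0.82) was farther from 0 than Mmp13 (-0.76) in ZJ316_COM against ZJ316_WT (limma adjusted p = 0.899 for each). The part of squamous tissue in this was not tested. By the ratio of means, Mmp7 differed more, with 0.670 ± 0.400 FPKM in ZJ316_WT (SD, n = 4) and 1.66 ± 1.16 FPKM in DSS (n = 3), a ratio of 0.404 with overlapping groups (limma adjusted p = 0.9996).

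Mmp10 followed in size, with -0.76 ± 0.30 in ZJ316_COM against ZJ316_WT (limma adjusted p = 0.389) and -0.73 ± 0.33 in ZJ316_COM against DSS (limma adjusted p = 0.437). Mmp13 in ZJ316_COM against DSS had -0.57 ± 0.26 (limma adjusted p = 0.449). Mmp14 had -0.21 ± 0.10 in ZJ316_COM against DSS (limma adjusted p = 0.448) and -0.20 ± 0.09 against ZJ316_KO (0.453), with 24.2 ± 2.5 FPKM in ZJ316_COM, 27.8 ± 2.4 FPKM in ZJ316_KO (SD, n = 4 each) and 28.2 ± 3.6 FPKM in DSS (n = 3). No difference of an inhibitor had an unadjusted p under 0.05 in these 6 comparisons, and the nearest was Timp3 in ZJ316_COM against DSS (0.23 ± 0.17, limma adjusted p = 0.635).

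**Figure D4:**
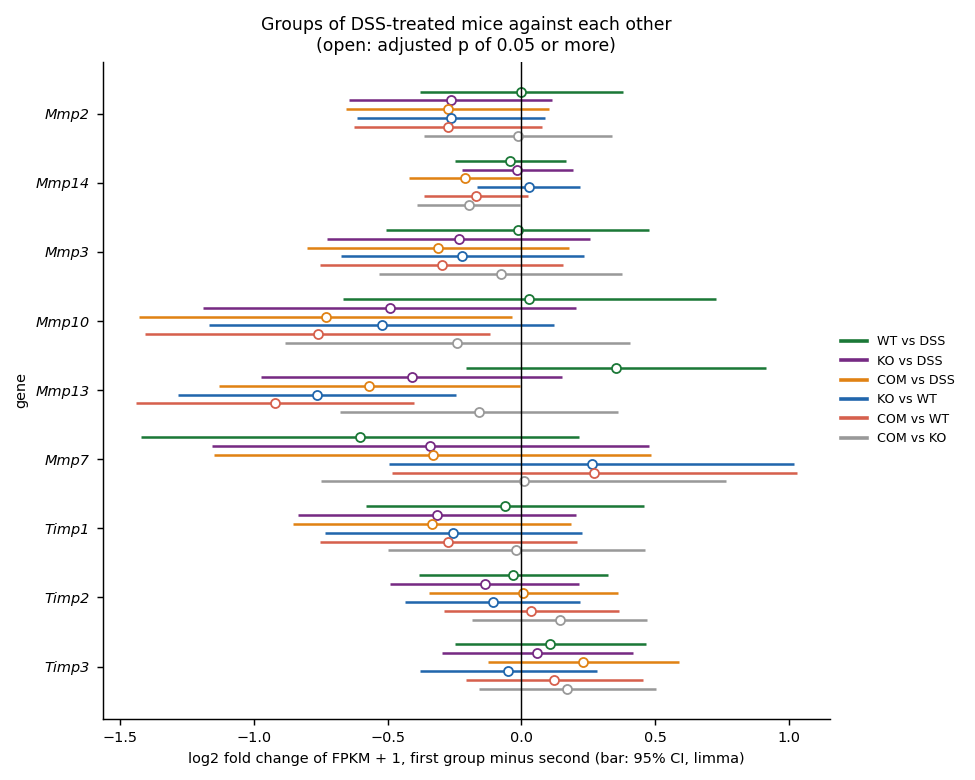
Log2 fold change of FPKM + 1 (horizontal axis) with its 95% confidence interval for the 9 tested members (rows) in the 6 comparisons between ZJ316_WT, ZJ316_KO, ZJ316_COM and DSS, with the first-named group minus the second. No point is filled, as no adjusted p was under 0.05, and the estimates farthest from 0 are those of Mmp13 in ZJ316_COM (-0.92) and ZJ316_KO (-0.76) against ZJ316_WT.

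Other genes of the pathway, from lists chosen by role, were read against the same fits. Of 17 other metalloproteinases and Timp4, 9 were tested, and 4 were higher than Control in ZJ316_WT (Mmp11, Mmp12, Mmp19 and Mmp23), 0 in ZJ316_KO, 0 in ZJ316_COM and 3 in DSS (Mmp11, Mmp19 and Mmp23). At an unadjusted p under 0.05, limma gave 4 higher in ZJ316_KO, and 3 higher and 1 lower in ZJ316_COM. At that threshold 13.3% of all genes were higher and 7.83% lower in ZJ316_KO, and 15.5% higher and 9.05% lower in ZJ316_COM. Without the libraries high in squamous markers, 2 genes of the list were called higher in ZJ316_WT and 0 in each of ZJ316_KO, ZJ316_COM and DSS (2, 2 and 3 at an unadjusted p under 0.05 in limma). Mmp17 was lower in ZJ316_WT by 0.31 on the log2 scale. Mmp19 rose by 1.02 in ZJ316_WT and 0.79 in DSS, and Mmp11, stromelysin-3, by 0.77 in ZJ316_WT and 0.63 in DSS. Mmp12, the macrophage elastase, rose by 1.35 in ZJ316_WT, and had 0.95 in ZJ316_KO, 1.36 in ZJ316_COM and 1.01 in DSS, which did not pass. It was at or under 0.45 FPKM in Control and so passed the filter only through treated libraries. Mmp8, the neutrophil collagenase, stayed at or under 0.25 FPKM in every library.

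Proteases and inhibitors that act upstream of the enzymes were mixed. Plat, tissue plasminogen activator, rose by 0.92 in ZJ316_WT and 0.81 in DSS. Among 11 tested ADAM and ADAMTS genes, 5 were higher in ZJ316_WT, 4 in ZJ316_KO, 6 in ZJ316_COM and 6 in DSS, and none was lower. Without the libraries high in squamous markers these were 4 in ZJ316_WT, 0 in ZJ316_KO, 0 in ZJ316_COM and 2 in DSS (6, 4, 7 and 6 at an unadjusted p under 0.05 in limma). With all libraries, Adam19 rose by 0.83 in ZJ316_WT, 0.55 in ZJ316_KO, 0.58 in ZJ316_COM and 0.84 in DSS, and Adamts2, a procollagen N-proteinase, by 0.78 in ZJ316_WT, 0.62 in ZJ316_KO, 0.64 in ZJ316_COM and 0.86 in DSS. Of 8 tested other activators and inhibitors, 2 were higher in ZJ316_WT, 0 in ZJ316_KO (3 at an unadjusted p under 0.05), 2 in ZJ316_COM and 2 in DSS, and without the libraries high in squamous markers 2 in ZJ316_WT, 1 in ZJ316_KO, 0 in ZJ316_COM (2 at an unadjusted p under 0.05) and 1 in DSS. Of these Lcn2, whose human form binds MMP9, rose by 1.5 in ZJ316_WT, 1.23 in ZJ316_COM and 1.55 in DSS and had 1.01 in ZJ316_KO, which did not pass. Bsg, basigin, an inducer of metalloproteinases, was lower by 0.41 in ZJ316_WT and 0.38 in DSS. Reck, a membrane inhibitor of metalloproteinases, had values between -0.10 and 0.01.

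Transcripts of matrix proteins that these enzymes cut were also higher. Of 16 tested substrates, 16 were higher than Control in ZJ316_WT, 8 in ZJ316_KO, 9 in ZJ316_COM and 15 in DSS, and none lower. Their median log2 fold change was 0.80 in ZJ316_WT, 0.55 in ZJ316_KO, 0.53 in ZJ316_COM and 0.87 in DSS, beside 0.03 to 0.05 over all genes tested. Dcn, decorin, rose by 1.45 in ZJ316_WT, 1.15 in ZJ316_KO, 1.37 in ZJ316_COM and 1.39 in DSS. Col1a2, a chain of type I collagen, rose by 1.14 in ZJ316_WT, 0.83 in ZJ316_KO, 0.83 in ZJ316_COM and 1.15 in DSS. When the libraries high in squamous markers were left out, the counts were 9 in ZJ316_WT, 0 in ZJ316_KO, 0 in ZJ316_COM and 3 in DSS (16, 13, 12 and 14 at an unadjusted p under 0.05 in limma), with medians of 0.90 in ZJ316_WT, 0.55 in ZJ316_KO, 0.49 in ZJ316_COM and 0.74 in DSS. The share of all genes at the unadjusted threshold without these libraries is not given, so those counts cannot be set against it.

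Known inducers of metalloproteinase genes changed unevenly. Il1b, interleukin-1 beta, rose by 1.71 in ZJ316_WT, 1.49 in ZJ316_KO, 1.44 in ZJ316_COM and 1.73 in DSS. Of 6 tested cytokines and growth factors, 4 were higher in ZJ316_WT, 1 in ZJ316_KO, 2 in ZJ316_COM and 2 in DSS, and Tgfb2 was lower in ZJ316_WT, by 0.46. Without the libraries high in squamous markers, 1 was higher in ZJ316_WT and 0 in the other 3 groups (2 in ZJ316_KO, 2 in ZJ316_COM and 3 in DSS at an unadjusted p under 0.05 in limma). Tnf rose by 0.81 in ZJ316_WT, and Tgfb1 by 0.49 in ZJ316_WT and 0.70 in DSS. Of the 7 genes of AP-1 subunits, limma called 0 higher than Control in each of the 4 groups, and at an unadjusted p under 0.05 there were 2 in ZJ316_KO and 0 in the other 3, where 22.8% of all genes in ZJ316_WT and 21.1% in DSS were higher. Jund was lower by 0.34 in ZJ316_WT and 0.46 in DSS. In ZJ316_KO against ZJ316_WT, Fosl1, an AP-1 subunit, was higher (0.69) and Adam17, which sheds membrane proteins, was lower (-0.34), both called.

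Medians of fibroblast, endothelial and macrophage markers were above Control in each treated group, as for the members, and those of smooth muscle markers were below. With all libraries, 2 of 10 colonic epithelial markers were lower in ZJ316_WT and DSS, 1 in ZJ316_KO and ZJ316_COM, and none higher. Most of the counts below fell when the libraries high in squamous markers were left out. For unadjusted counts without them, the share of all genes is not given. All 8 fibroblast markers were higher than in Control in ZJ316_WT and DSS and 6 in ZJ316_KO and ZJ316_COM, with summed levels of 477 to 660 FPKM in ZJ316_WT, 357 to 550 in ZJ316_KO, 424 to 526 in ZJ316_COM, 447 to 637 in DSS and 167 to 287 in Control. Without those libraries 6 were called in ZJ316_WT, 2 in ZJ316_KO, 0 in ZJ316_COM and 2 in DSS (8, 8, 7 and 8 at an unadjusted p under 0.05 in limma). Of 6 endothelial markers, 6 were higher in ZJ316_WT, ZJ316_KO and DSS and 5 in ZJ316_COM, and without those libraries 6 in ZJ316_WT, 5 in ZJ316_KO, 3 in ZJ316_COM and 6 in DSS. Of 8 tested macrophage markers, 8 were higher in ZJ316_WT, 0 in ZJ316_KO (8 at an unadjusted p under 0.05 in limma), 7 in ZJ316_COM and 8 in DSS. Macrophage markers summed to 229 to 287 FPKM in ZJ316_WT, 111 to 214 in ZJ316_KO, 158 to 225 in ZJ316_COM, 217 to 308 in DSS and 47.3 to 141 in Control. Without those libraries 3 were called in ZJ316_WT and 0 in ZJ316_KO, ZJ316_COM and DSS (2, 8 and 8 at an unadjusted p under 0.05 in limma). The 7 of ZJ316_COM were 1 without the acinar-rich libraries and 2 without those low in Hox genes. Of 7 smooth muscle markers, 5 were lower in ZJ316_WT, 0 in ZJ316_KO (2 at an unadjusted p under 0.05), 3 in ZJ316_COM and 3 in DSS, and without the libraries high in squamous markers 3 in ZJ316_WT, 0 in ZJ316_KO (2 at an unadjusted p under 0.05), 2 in ZJ316_COM and 0 in DSS (6). Of 5 tested neutrophil markers, 3 were higher in ZJ316_WT and DSS and 0 in ZJ316_KO and ZJ316_COM (3 in each at an unadjusted p under 0.05). The 3 called, S100a8, S100a9 and Csf3r, reached at most 0, 0.37 and 0.62 FPKM in Control, so they passed the filter only through treated libraries and had to differ. Without the libraries high in squamous markers 0 were called in any group (4 in ZJ316_WT, 3 in ZJ316_KO, 4 in ZJ316_COM and 3 in DSS at an unadjusted p under 0.05 in limma). The granule genes Mpo and Elane reached at most 0.08 and 0.35 FPKM. Ly6g, the most abundant gene of the neutrophil list, was not called. It had 344, 234 and 1.29 FPKM in Control and 108.1 to 297.2 FPKM in the treated libraries, so it did not follow the genes called. The part of these cell types in the changes of the members was not tested.

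Likeness across libraries is given as a description, since the libraries share groups. Among the 45 pairs of members, Pearson's r of log2(FPKM + 1) over the 15 treated libraries was highest for Timp2 with Timp3 (0.878) and Mmp10 with Mmp13 (0.835), followed by Mmp2 with Timp1 (0.787), and the lowest was -0.282 for Mmp10 with Timp3. Over all 18 libraries, which include the step to Control, Mmp10 with Timp3 had 0.39 and Mmp2 with Mmp14 had 0.91. Outside the set, the tested gene most like Mmp2 was Col1a2 (0.97 over 18 libraries and 0.952 over the 15), then Igfbp7 and Adamts2 (both 0.966 over 18). For Mmp14 it was Sfrp1 (0.95 and 0.861), then Fbln1 and Meox1. Timp1 was most like Igfbp7 (0.949 and 0.881), then Sfrp1 and Adcy4, and Timp2 was most like Vim (0.945 and 0.892), the intermediate filament of mesenchymal cells, then Htra3 and Plxdc2.

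The chromosome 9 enzymes had other neighbours in this sense. Mmp3 was most like Clca4b (0.939 over 18 libraries and 0.74 over the 15), then Clca3b and Igfbp4. Mmp10 was most like Col18a1 (0.931 and 0.81), then Mlph and Scube1, and Mmp13 was most like Scube1 (0.945 and 0.898), then Mettl4 and Col18a1, so this pair shared both Scube1 and Col18a1 among its nearest genes. Timp3 was most like Cplx2 (0.924 and 0.851), then Spata13 and Ackr3. Mmp7 had weaker likeness, to Gata5 (0.772 and 0.685), Prox1 and Sema7a, with values near 0 in many libraries.

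**Figure D5:**
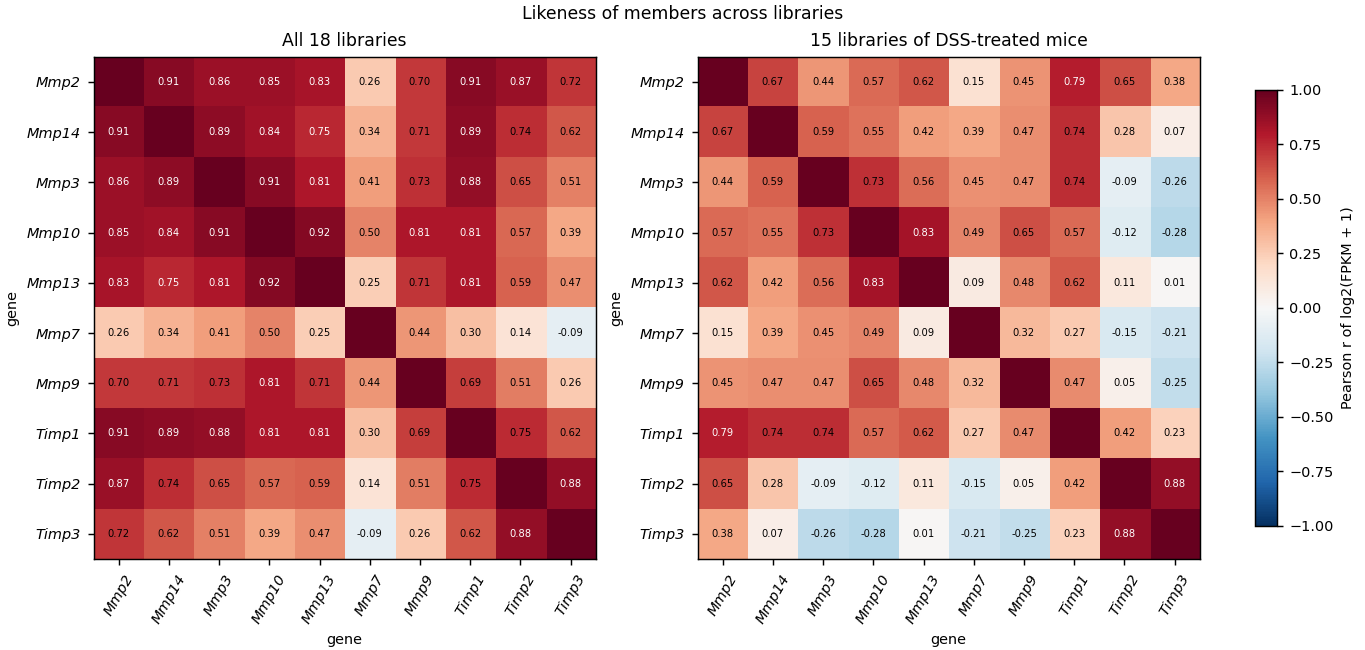
Pearson's r of log2(FPKM + 1) between members over all 18 libraries (left) and over the 15 libraries of mice that drank dextran sulfate sodium (right), from -1 (blue) to 1 (red). On the right, Timp2 and Timp3 (0.88) and Mmp10 and Mmp13 (0.83) stand out, and Timp3 is at or below 0.38 with each enzyme.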

How the data were processed

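The authors deposited FPKM values for 18349 genes in 18 libraries, with DNBSEQ as the platform per the labels' protocols, and the submitters' processing notes name mm10. Which aligner, annotation and FPKM program were used is not given in the sources used here. Depth is unknown. Of the identifiers, 18230 matched a symbol in the RefSeq table of GRCm38.p6 and 119 did not. Identical values between a pair of libraries reached at most 2.51%. All libraries entered 1 limma 3.58.1 model (R 4.3.3) on log2(FPKM + 1) with a mean-variance trend, after a filter of 1 FPKM in 3 libraries, with 10 two-sided contrasts. The code was tested on simulated data. The alternatives were each library left out in turn, a replicate block, a fit of the compared pair of groups alone, TPM rescaling, quantile normalization, a 5 FPKM filter (9854 genes) or none (18231 genes), a pseudocount of 0.1, and a floor of 1 on the absolute log2 fold change. Exclusions of libraries high in acinar or squamous markers or low in Hox genes were chosen after seeing the data. Members and lists were chosen with earlier results of these data known. All members were named, with up to 4 genes of a list (called ones of largest change first, then those of smallest p) and the 3 tested genes most correlated with a member. Mmp17, Mmp8, Tgfb2, Reck, Mpo, Elane, Defa24, Epcam, Vil1 and the range of Car1 were given outside this rule after their values were seen. The levels of Ly6g were also added after they were seen. Some genes that this rule takes are left out of the text.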

Additional observations from a re-analysis of the deposited data

Results flagged for a closer look

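Within groups of 4 libraries, 30 sets of member values were examined for a library far from the rest, and 2 were found, where chance alone gives about 1 in 20. Mmp7 was high in ZJ316_KO 2, at 2.28 FPKM, against 0.56 to 0.73 FPKM in the other ZJ316_KO libraries. The gap took 0.901 of the group's range, above Dixon's critical value for 4 libraries. ZJ316_KO 2 also had few transcripts of the distal gut Hox genes (mean log2 of 2.03, against 3.24 to 3.56 in the other ZJ316_KO libraries). The library with the most Mmp7, DSS 2 (2.8 FPKM), had a Hox mean of 4.164, and the part of gut position was not tested. Mmp9 was low in ZJ316_WT 4, at 0.52 FPKM, against 0.79 to 0.84 FPKM in the other ZJ316_WT libraries, with a gap of 0.844 of the range.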

How the results depend on the processing

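In fits of only the 2 groups compared the count of members called against Control was 0 in DSS, 0 in ZJ316_KO and 1 in ZJ316_COM, where 0, 2 and 15 of all genes were called, and 7 in ZJ316_WT. These fits have fewer libraries, and the cause was not tested. The number of all genes called is not given for ZJ316_WT in these fits. It is also not given for the counts below with a floor, a 5 FPKM filter, a block or a single library left out. Those member counts therefore have no background beside them. With a floor of 1 on the absolute log2 fold change the count was 2 in ZJ316_KO and 2 in ZJ316_COM, in each case Mmp3 and Mmp10. That pair passed the main filter only through treated libraries, so these counts lend no support. With a filter of 5 FPKM the count was 3 in ZJ316_KO, as 6 members were then tested. Leaving out the libraries high in squamous markers gave 3 in DSS, 3 in ZJ316_KO and 1 in ZJ316_COM, and leaving out those low in Hox genes gave 3 in ZJ316_COM. Mmp3 is in each of these counts and Mmp10 in those of DSS and ZJ316_KO, and the calls of this pair lend no support. With each library left out in turn the count ran from 2 to 7 in ZJ316_COM. Of 25 called member values, 18 were called with each library left out, and 4 (Mmp2, Mmp3, Mmp10 and Mmp13 in ZJ316_WT) under every alternative run. These counts include values of Mmp3 and Mmp10, which lend no support. No called value changed sign. Among the uncalled, 77 of 981 values between treated groups and 1 of 191 against Control did. Same-numbered libraries did not pair (r of deviations from -0.473 to 0.392 over 33 pairs, 13 over 0.1). With the replicate number as a block, 7 members were called in DSS, 7 in ZJ316_WT, 4 in ZJ316_KO and 4 in ZJ316_COM, and 0 in the other comparisons; Mmp13 in ZJ316_KO (0.97, limma adjusted p = 0.0847), Mmp14 in ZJ316_COM (0.40, 0.0547) and Timp3 in ZJ316_COM (0.58, 0.0803) were lost. Without a filter Mmp9 had 0.43 in ZJ316_WT (limma adjusted p = 0.0180), 0.38 in ZJ316_KO (0.0825), 0.25 in ZJ316_COM (0.215) and 0.62 in DSS (0.00585). Rescaling to TPM moved the median of all genes in ZJ316_WT against Control to 0.10.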
